A study of Homo sapiens with 6 samples.

Results

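HERV-E is a group of human endogenous retroviruses, and the 5 entries described here are the rows named HERVE-int, HERVE_a-int, LTR2, LTR2B and LTR2C in a table of 15641 repeat names. They were chosen by name, and all 5 passed the filter on low counts. HERVE-int and HERVE_a-int are the internal parts of 2 HERV-E subgroups, the stretch that carries the viral genes. LTR2, LTR2B and LTR2C are variants of the long terminal repeat (LTR) found at the ends of HERV-E proviruses.

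An LTR holds the promoter and the polyadenylation signal of a retrovirus, so transcription of a provirus starts in one LTR, runs through the internal part and ends in the other. Many LTRs in the genome are solitary, left behind when the ends of a provirus recombined and the internal part was lost. Reads on an internal entry therefore come from copies that still have viral sequence, and reads on an LTR entry from proviral ends and solitary LTRs. Host transcripts that run through a copy can add reads to both kinds of entry. LTR2 copies are known to serve as alternative promoters of host genes, among them EDNRB in placenta and APOC1. HERV-E transcripts are known from clear cell kidney cancer.

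H9 cells, a widely used line of human embryonic stem cells, were fractionated, and chromatin-associated RNA was made into 3 libraries labelled naive and 3 labelled primed. Naive cells resemble the pluripotent cells of the embryo before implantation, and primed cells those after it. All 6 carry the same growth protocol in RSeT, a naive medium, so the primed state rests on the treatment label. No genetic change or added agent is named, and separate cultures are not mentioned, so p-values speak of the spread among libraries, possibly a technical one. Each value is a count of reads over all genomic copies of a repeat name, and so has no single coordinate.

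Total counts lay between 7192242 and 17791046 in 5 libraries. Primed library 2 stood apart with 118793, where 1 count is worth 5.59 CPM (the share of a library's counts, scaled with TMM factors) and 3 counts 16.8 CPM, against 0.0702 to 0.127 CPM per count elsewhere. Alpha satellite, the repeat of centromeres, took 25.3% to 42.9% of counts in naive and 0.221% to 0.625% in primed libraries. Such a share lowers the unscaled CPM of every other entry. Of the 4 repeat entries listed as naive markers (HERVK-int, LTR5_Hs, LTR7Y and SVA_D), 2 were called higher in naive libraries, and so were both entries listed for primed cells, HERVH-int and LTR7. The same call was made for 4.94% of all entries tested and 15.6% of LTR retrotransposon entries. The summed levels were 6737 to 15979.5 CPM in naive and 1516 to 1755 CPM in primed libraries for the naive list, and 25179 to 44016 against 12503 to 16996 CPM for the primed list. The 12 marker genes looked for matched 0 rows, so the cell state could not be checked by genes.

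The internal parts of HERV-E were higher in naive libraries, while their LTRs did not follow as a group. HERVE_a-int was 1.99-fold and HERVE-int 1.70-fold higher. LTR2 and LTR2B stood at 1.27-fold and 1.28-fold without passing the test, and LTR2C pointed the other way, at 1.54-fold lower, just short of the threshold. By edgeR's quasi-likelihood test over 3219 entries, 2 of the 5 were called higher at an adjusted p under 0.05, where 4.94% of all entries tested and 15.6% of 537 LTR retrotransposon entries were. None was called lower, against 7.77% of all and 0.745% of LTR entries, and 1 of the 5, LTR2C, was lower at an unadjusted edgeR p under 0.05. DESeq2, at an adjusted p under 0.05, also called 0 of them lower. HERVE-int, HERVE_a-int and LTR2B had all naive above all primed libraries, as did 19.4% of all and 40.2% of LTR entries, and none of the 5 had the reverse, seen in 11.0% and 2.05%. In RNA from whole cultures, fewer cells that transcribe an element and less RNA per cell cannot be told apart.

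For HERVE_a-int, the internal part of the HERVE_a subgroup, naive libraries 1 to 3 gave 1112, 1918 and 2078 counts, and primed libraries 1 to 3 gave 532, 16 and 776. These correspond to 126, 172 and 146 CPM in naive and 67.3, 89.5 and 77.3 CPM in primed libraries. Every naive library lay above every primed one, and the highest primed value belonged to the shallow library. The 95% Poisson interval of that library, 51.2 to 145 CPM, reached past the value of naive library 1. The means were 148 ± 22.8 and 78.03 ± 11.1 CPM (SD, n = 3 each), a log2 change of 0.99 ± 0.16 (SE; edgeR adjusted p = 0.00959). Among the 537 LTR retrotransposon entries its change ranked 15th from the top. The call was lost without primed library 1 (log2 0.87, edgeR adjusted p = 0.0804), with library size alone (0.32, 0.359) and after thinning to the smallest library (0.78, 0.268). Without primed library 1, only 8 of all entries were called higher, against 159 with all libraries.

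HERVE-int, the internal part of the main HERV-E group, had 1993, 4607 and 5166 counts in naive and 1516, 28 and 2244 in primed libraries 1 to 3. Its levels were 227, 413 and 363 CPM in naive and 192, 157 and 223 CPM in primed libraries. The groups did not overlap, but naive library 1 and primed library 3 lay side by side, and naive libraries 2 and 3 carried the difference. The means of 334 ± 96.3 and 191 ± 33.4 CPM (SD, n = 3 each) gave a log2 change of 0.77 ± 0.21 (SE; edgeR adjusted p = 0.0391). This rank was 40th from the top among LTR retrotransposon entries. The call was lost without naive library 2 (log2 0.62, edgeR adjusted p = 0.0887), primed library 1 (0.73, 0.221) or primed library 2 (0.70, 0.0682), and when simple repeats were left out of the fit (0.53, 0.143). It was also lost with library size alone (0.09, 0.798) and after thinning to the smallest library (0.74, 0.245).

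**Figure D1:**
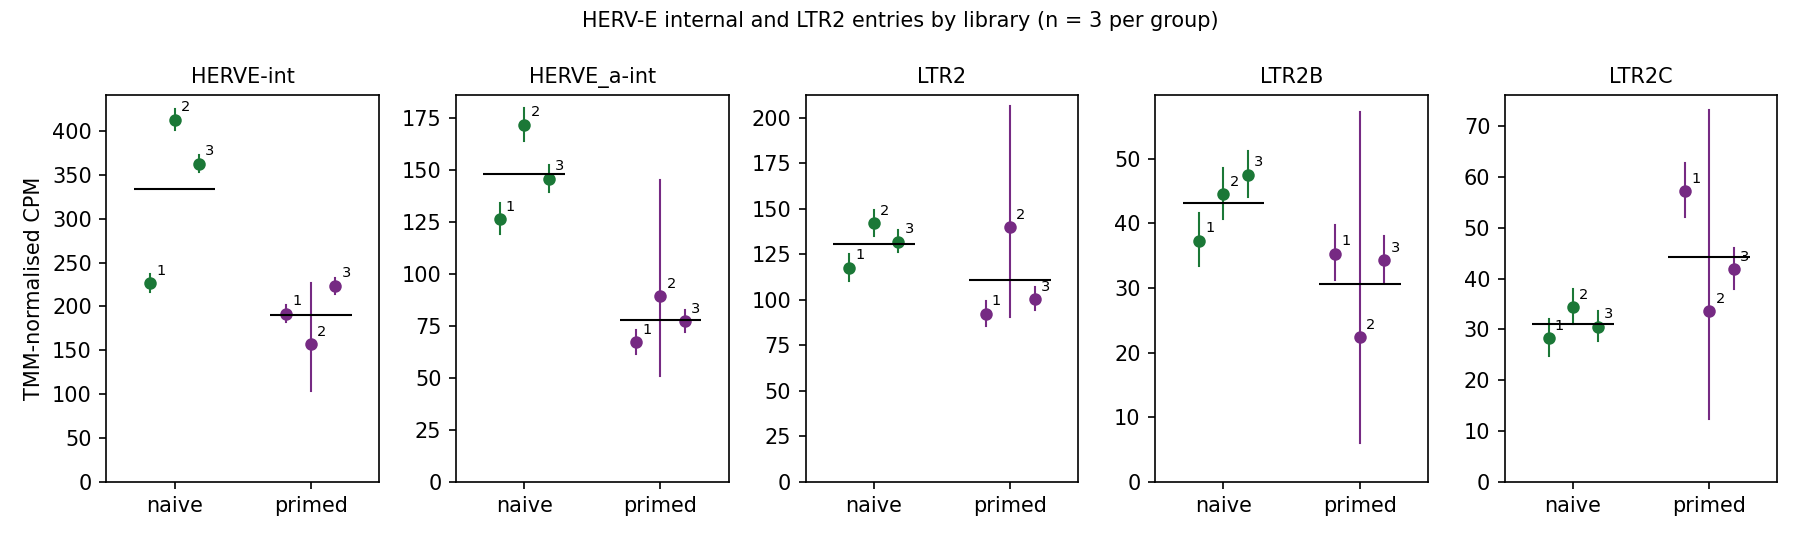
TMM-normalised CPM (linear axis from 0) of each entry in the 3 naive (green) and 3 primed (purple) libraries, numbered by library; vertical lines are 95% Poisson intervals of the count and horizontal lines are group means. HERVE_a-int is 126 to 172 CPM in naive and 67.3 to 89.5 CPM in primed libraries, LTR2C is highest in primed library 1 at 57.2 CPM, and primed library 2 has by far the widest intervals.

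LTR2, the LTR with the most counts of the 3, showed little separation. It had 1034, 1585 and 1881 counts in naive and 731, 25 and 1008 in primed libraries 1 to 3, or 118, 142 and 132 CPM against 92.5, 139.8 and 100.4 CPM. Primed library 2, with a 95% Poisson interval of 90.5 to 206 CPM, sat among the naive libraries, and the other primed libraries lay below all 3. The log2 change was 0.34 ± 0.16 (SE; edgeR adjusted p = 0.172), close to the median of 0.31 over LTR retrotransposon entries. Without primed library 2 it was 0.45 and still missed the threshold (edgeR adjusted p = 0.0542).

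LTR2B, a variant of the same LTR, had fewer counts. They were 328, 497 and 677 in naive and 279, 4 and 344 in primed libraries 1 to 3, or 37.3, 44.5 and 47.5 CPM against 35.3, 22.4 and 34.3 CPM. The groups did not overlap, but naive library 1 exceeded primed library 1 by little. Primed library 2, at 4 counts, had a 95% Poisson interval of 6.10 to 57.3 CPM, which covers all naive values. The log2 change of 0.36 ± 0.18 (SE) did not pass (edgeR adjusted p = 0.198) and also lay near the median of LTR entries. With library size as the only scaling the log2 changes of LTR2 and LTR2B turned to -0.35 and -0.23, neither past the threshold (edgeR adjusted p = 0.303 and 0.550).

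LTR2C, a further LTR2 variant, was the entry with the opposite direction. It had 248, 383 and 435 counts in naive and 452, 6 and 420 in primed libraries 1 to 3, although the totals of these primed libraries were smaller. Its levels were 28.2, 34.3 and 30.5 CPM in naive and 57.2, 33.6 and 41.8 CPM in primed libraries. Primed libraries 1 and 3 lay above all naive ones, while primed library 2, at 6 counts and a 95% Poisson interval of 12.3 to 73.1 CPM, fell inside the naive range, so the groups overlapped. The log2 change was -0.62 ± 0.19 (SE; edgeR adjusted p = 0.0551), the 7th lowest among 537 LTR retrotransposon entries, at the far end from the internal parts.

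Whether LTR2C passed depended on small choices. Of 16 alternatives, 9 called it lower and all 16 had it below 0, with edgeR and DESeq2 adjusted p between 0.000451 and 0.405. The lowest adjusted p came with library size alone, a fit that called 1051 of 3219 entries lower. RLE factors (log2 -0.66, edgeR adjusted p = 0.0475), upper-quartile factors (-0.70, 0.0259) and the fit without primed library 2 (-0.66, 0.0445) or 3 (-0.76, 0.0473) were among the alternatives that called LTR2C. DESeq2 did not (-0.64, adjusted p = 0.135). Primed library 1 held the highest level, and without it the change shrank to -0.39 (edgeR adjusted p = 0.405).

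**Figure D2:**
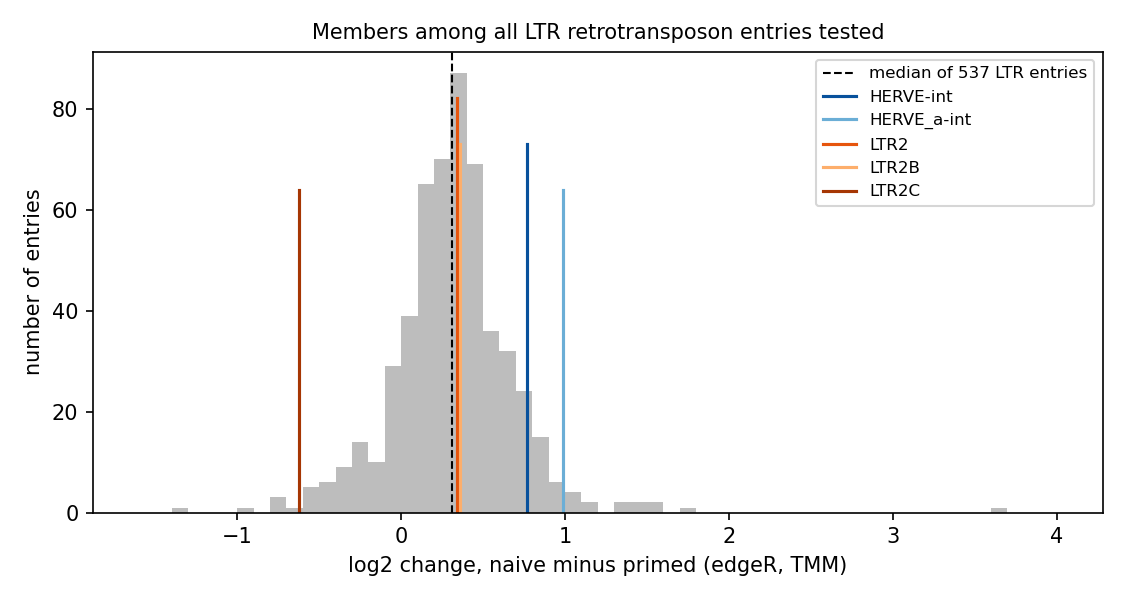
Histogram of the log2 change (naive minus primed, TMM scaling) of 537 LTR retrotransposon entries, in bins of 0.1, with coloured lines, whose height has no meaning, at the 5 HERV-E and LTR2 entries and a dashed line at the median. LTR2 (0.34) and LTR2B (0.36) stand beside the median of 0.31, HERVE-int (0.77) and HERVE_a-int (0.99) in the upper tail and LTR2C (-0.62) in the lower one; with library size as the only scaling LTR2 and LTR2B fall below 0.

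Ratios within a library do not depend on scaling between libraries, and they bear directly on how the entries differ from each other. The summed internal counts were 1.93, 2.65 and 2.42 times the summed LTR counts in naive libraries 1 to 3, and 1.40, 1.26 and 1.70 times in primed libraries 1 to 3. All 3 naive ratios exceeded all 3 primed ones, with a log2 difference of 0.68 (exact two-sided permutation p = 0.1). That p is the smallest 3 against 3 libraries can give, so no comparison of ratios could pass 0.05. By this ratio, reads of the summed internal entries gained on those of the summed LTR entries in the naive libraries, whichever factor scales them. LTR reads can also come from the LTR2-type ends of Harlequin-int, described below, whose counts are not in the internal sum.

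Of the 10 pairs of entries, the widest differences all had LTR2C as one member. HERVE_a-int counts were 4.48, 5.01 and 4.78 times those of LTR2C in naive and 1.18, 2.67 and 1.85 times in primed libraries 1 to 3. The log2 difference was 1.43 (exact permutation p = 0.1, adjusted over the 10 pairs 0.2). For HERVE-int over LTR2C it was 1.29, for LTR2B over LTR2C 0.98 and for LTR2 over LTR2C 0.76, each with an exact permutation p of 0.1 (adjusted 0.2). The LTR2B to LTR2C ratio was 1.32, 1.30 and 1.56 in naive and 0.617, 0.667 and 0.819 in primed libraries. LTR2B thus had more counts than LTR2C in each naive library and fewer in primed libraries 1 and 3. In primed library 2 the counts were 4 and 6, too few to give a direction. The HERVE_a-int to LTR2C ratio of that library rested on 16 and 6 counts.

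The LTR2 to LTR2C ratio was the least settled of these. It was 4.17, 4.14 and 4.32 in naive and 1.62, 4.17 and 2.40 in primed libraries 1 to 3, with primed library 2 at the naive level on 25 and 6 counts. Without primed library 2 its log2 difference was 1.09, and without primed library 1 it was 0.46. With nothing added to the counts the groups overlap and the exact permutation p is 0.2.

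Among the other pairs, HERVE_a-int gained on LTR2, with ratios of 1.08, 1.21 and 1.10 in naive and 0.728, 0.640 and 0.770 in primed libraries (log2 difference 0.66, exact permutation p = 0.1, adjusted 0.2). The remaining 5 pairs overlapped between the groups. HERVE-int over HERVE_a-int differed by -0.14 (exact permutation p = 0.6) and LTR2 over LTR2B by -0.21 (0.9), both within the spread between libraries, and both changed sign when 1 library was left out (0.01 without naive library 1 and 0.13 without primed library 2). HERVE-int over LTR2 differed by 0.53, HERVE-int over LTR2B by 0.31 and HERVE_a-int over LTR2B by 0.45, each with an exact permutation p of 0.3.

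**Figure D3:**
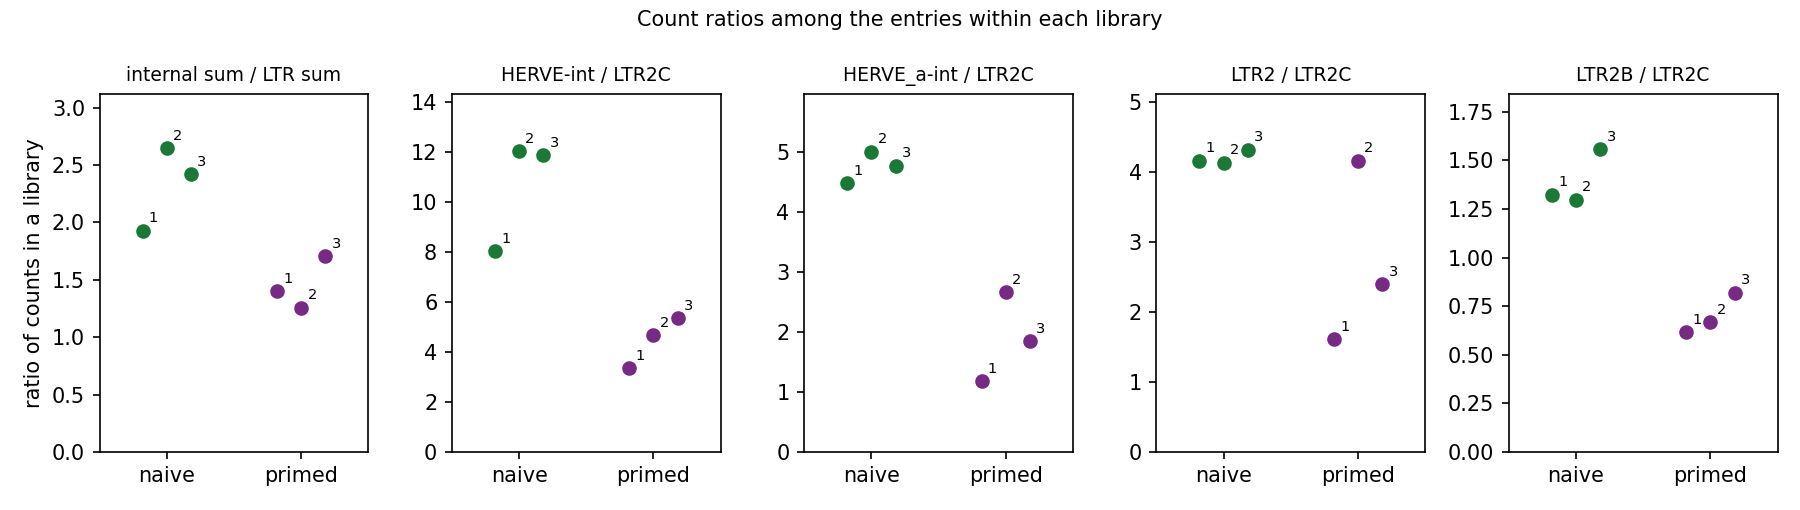
Ratio of counts within each library (linear axes from 0), for the summed internal over the summed LTR entries and for each other entry over LTR2C, in naive (green) and primed (purple) libraries numbered 1 to 3. The LTR2B to LTR2C ratio lies at 1.30 to 1.56 in naive and 0.617 to 0.819 in primed libraries, while primed library 2 reaches the naive level in the LTR2 to LTR2C panel. Every ratio over LTR2C in primed library 2 rests on 6 LTR2C counts.

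Read as a make-up of the 5 entries together, a measure added after the data were seen, LTR2C took 5.26% (95% Wilson interval 4.66% to 5.93%), 4.26% (3.86% to 4.70%) and 4.25% (3.88% to 4.66%) of their counts in naive libraries 1 to 3. In primed libraries 1 to 3 it took 12.9% (11.8% to 14.0%), 7.59% (3.53% to 15.6%) and 8.76% (8.0% to 9.6%). The share was thus larger in every primed library, but the interval of primed library 2 reaches down to the naive values. Group means were 4.59% ± 0.580 and 9.75% ± 2.77 (SD, n = 3 each; exact permutation p = 0.1, adjusted over 5 entries 0.25). These intervals cover counting error only, because duplicate reads of 1 molecule could not be recognised.

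HERVE_a-int moved the opposite way within that sum, from 17.2% ± 2.69 in primed to 21.7% ± 1.68 in naive libraries (SD, n = 3 each; exact permutation p = 0.1, adjusted 0.25). The groups all but touched, since primed library 2 held 20.25% (95% Wilson interval 12.9% to 30.4%, from 16 counts) and naive library 3 held 20.30%. HERVE-int, the entry with the most counts, took 47.99% ± 4.97 in naive and 41.8% ± 5.81 in primed libraries, with overlapping groups (exact permutation p = 0.3). The shares of LTR2 (19.3% ± 2.30 and 24.5% ± 6.19) and LTR2B (6.37% ± 0.745 and 6.73% ± 1.49) overlapped too, with exact permutation p of 0.3 and 0.7.

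**Figure D4:**
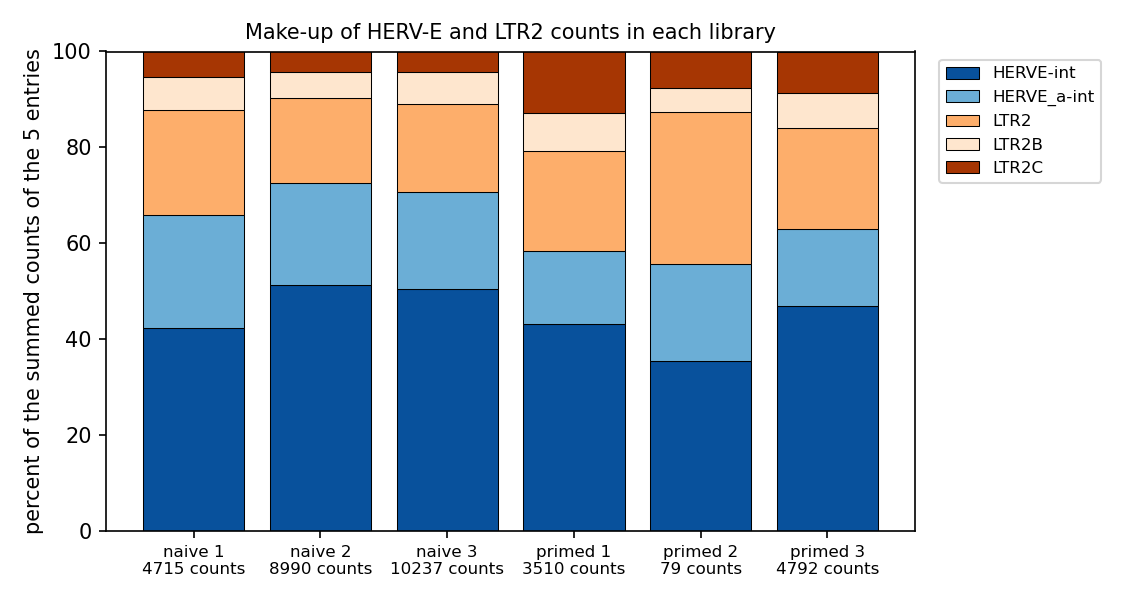
Stacked bars of the share (percent) of each entry in the summed counts of the 5 entries, 1 bar per library, with that sum printed under each bar. LTR2C (dark brown, top) takes 4.25% to 5.26% in naive and 7.59% to 12.9% in primed libraries, and the bar of primed library 2 rests on 79 counts.

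The level of the whole group depended on what it was measured against. As unscaled CPM of all counts the 5 entries summed to 484, 505 and 613 in naive and 488, 665 and 591 in primed libraries 1 to 3, with an interval of 534 to 829 (95% Wilson) for primed library 2. The groups overlapped (exact permutation p = 0.6). With alpha satellite and ribosomal RNA taken out of the total, the sums became 705, 980.4 and 938 against 595, 698 and 645 CPM, and every naive library then exceeded every primed one (exact permutation p = 0.1). As CPM of the counts on LTR retrotransposon entries they were 4509 ± 645 for naive against 4476 ± 134 for primed libraries (SD, n = 3 each; exact permutation p = 0.9). As a part of LTR retrotransposon RNA the group mean thus differed by less than the spread between libraries, while the entries within the group went apart. HERVH-int and HERVK-int belong to that denominator, with mean counts per library of 222096 and 60870. Both were called higher in the naive libraries, at log2 changes of 1.14 and 3.62. This share therefore cannot separate an unchanged group from one that rose along with its denominator. The share without HERVH-int and HERVK-int was not computed.

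The fitted changes depended on scaling too. With library size alone the median over all entries moved from -0.0046 to -0.61, and 1051 of 3219 entries tested were called lower. HERVE-int then stood at 0.09 (edgeR adjusted p = 0.798) and HERVE_a-int at 0.32 (0.359), and neither was called, while LTR2C was called lower at -1.22 (0.000451). Relative to the median of all entries the values were 0.70, 0.93 and -0.61 with library size alone and 0.77, 0.99 and -0.62 with TMM factors. The 5 changes kept their order, and their position against 0 differed.

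**Figure D5:**
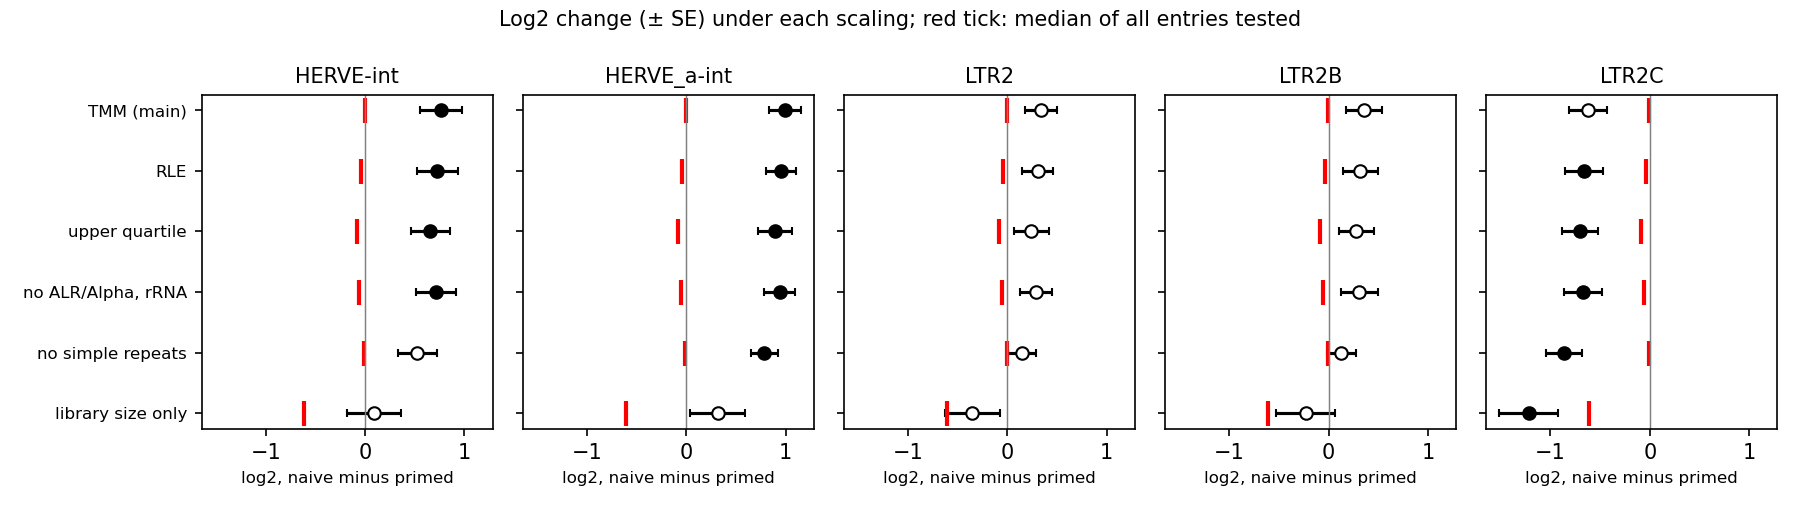
Log2 change (naive minus primed) ± SE of each entry under 6 ways of scaling or choosing the entries fitted; filled points have an edgeR adjusted p under 0.05, and red ticks mark the median of all entries tested in that fit. HERVE_a-int is called in all fits shown except with library size alone, where its change is 0.32 and the median of all entries -0.61; LTR2 and LTR2B lie above 0 except with library size alone, at -0.35 and -0.23.

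Harlequin-int, the internal entry of a mosaic retrovirus group whose ends are also of the LTR2 type, was looked at after entry names and values had been seen. It stood at 249.8, 382 and 289.5 CPM in naive libraries 1 to 3 against 182, 185 and 201 CPM in primed libraries 1 to 3, again without overlap. Its log2 change of 0.69 ± 0.17 (SE; edgeR adjusted p = 0.0263) lay just below that of HERVE-int. The call was lost without naive library 2 (0.54, edgeR adjusted p = 0.0802) or primed library 1 (0.64, 0.177), without simple repeats (0.47, 0.0989), with library size alone (0.0025, 0.996) and after thinning to the smallest library (0.37, 0.590). These 3 internal entries with LTR2-type ends had larger changes than each of the 3 LTR2 entries. Since Harlequin-int was chosen after values were seen, it does not count as independent support for that.

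To set the ratio of internal to LTR counts beside other groups, every pair of tested LTR retrotransposon entries named X-int and X was taken, a choice by name made after values were seen. There were 27 such pairs. The ratio was higher in naive libraries for 11 of them and lower for 16, with a median log2 difference of -0.11 and a range from -1.51 for LTR43 to 0.90 for MER50. The summed HERV-E entries, at 0.68, lay toward the upper end of that range, and MER76, also at 0.68, and MER50 were at or above them. Among these 27 pairs, internal parts did not, as a rule, gain on their LTRs. Matching by name leaves out groups whose LTR has another name, and their ratios were not computed. Of those, HERVK-int (log2 change 3.62), HERVH-int (1.14) and HERV17-int (0.64) changed more than LTR5_Hs (1.59), LTR7 (0.87) and LTR17 (0.45). HERVS71-int (0.45) lay above LTR6A (-0.73) but not above LTR6B (0.47). A gain of internal over LTR reads was thus not particular to HERV-E.

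Among 24 entries of retrovirus groups related to HERV-E (HERV3, HERVS71, HERVI, HERV1 and HERVIP10 with their LTRs), 22 were tested, 3 rose, 1 fell and 18 did not pass, where 15.6% of LTR retrotransposon entries were called higher and 0.745% lower. The share that rose is near that background. Their median log2 change was 0.11, against 0.36 over the 5 HERV-E and LTR2 entries, 0.31 over LTR retrotransposon entries and -0.0046 over all entries. The 3 that rose are internal parts, but other internal entries of the list did not pass, among them HERVI-int (-0.10, edgeR adjusted p = 0.727) and HERV1_I (-0.92, 0.0576), the lowest value of the list. HERV3-int, whose group carries an envelope gene expressed in placenta, gave 0.65 ± 0.14 (SE; edgeR adjusted p = 0.0208), HERVIP10F-int 0.61 ± 0.15 (0.0300) and HERVIP10FH-int 0.60 ± 0.15 (0.0302).

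The related entry that fell was an LTR. LTR6A, an LTR of the HERVS71 group, stood at 76.7, 64.6 and 77.8 CPM in naive and 147, 106 and 100.5 CPM in primed libraries 1 to 3. All primed libraries lay above all naive ones, with primed library 1 the highest, as for LTR2C. Its log2 change was -0.73 ± 0.17 (SE; edgeR adjusted p = 0.0238). HERVS71-int (0.45, edgeR adjusted p = 0.232) and HERVIP10B3-int (0.21, 0.519), the 2 related entries with the most counts, did not pass. Without primed library 1, or without naive library 2, 0 of the related entries was called in either direction, and with simple repeats left out or with library size alone 0 was called higher.

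Some repeats linked to other cell types were also called higher in naive libraries. The same call was made for 15.6% of LTR retrotransposon entries tested, and the median log2 change over all those tested was 0.31. Of 4 entries of trophoblast-linked groups (HERV17-int, LTR17, MER50-int and MER50), 3 were called higher, and their summed level was 961 to 1155 CPM in naive and 520.2 to 803 CPM in primed libraries. Of 3 entries that mark cells like those of the early cleavage embryo (HERVL-int, MLT2A1 and MLT2A2), HERVL-int was called higher, and the sum was 1675 to 2090.1 CPM against 1126 to 1457 CPM. The log2 changes of these 7 entries ran from 0.13 for MLT2A2 to 1.43 for MER50-int, with MLT2A1 at 0.42 and LTR17 at 0.45. None of the 7 entries was at 0 in any library. Their part in the HERV-E result was not tested.

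The patterns most like each entry were sought among 1156 named repeats by the root mean square difference of centred log2 CPM over the 6 libraries. This description rests on the same libraries and scaling factors. Each library had equal weight, also primed library 2, with 28 counts for HERVE-int, 4 for LTR2B and 6 for LTR2C. The LTR2 to LTR2B ratio was 6.25 there and 2.62 to 3.19 elsewhere, so counting noise in that library enters all these distances. Nearest to HERVE_a-int were EUTREP16 (0.0826), L1P3 (0.103) and L1PB2 (0.123), and nearest to HERVE-int were LTR9D (0.0818), MER73 (0.104) and LTR45 (0.137). LTR2 lay nearest MER57E1 (0.0347), UCON48 (0.0411) and LTR90A (0.0571), and LTR2B nearest MamGypLTR1b (0.0523), LTR9A1 (0.0788) and LTR1F1 (0.0817). For LTR2C they were MER67B (0.108), AluSx (0.128) and GA-rich (0.129).

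The 5 entries themselves were kept out of that search, and their distances from each other varied. The closest members were HERVE-int and LTR2B, at 0.246, with 63 of the 1156 repeats nearer to HERVE-int than LTR2B was and a median distance of 0.435 from HERVE-int. HERVE-int and HERVE_a-int differed by 0.290, with 137 repeats nearer to HERVE-int. LTR2C stood farthest from the others, at 0.516 to 0.779. Its distance of 0.779 was that from HERVE_a-int, where the median repeat lay at 0.444 and 1057 repeats were nearer.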

How the data were processed

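RNA of the chromatin fraction of H9 cells was sequenced in 3 naive and 3 primed libraries made with a directional kit, per the labels' protocols. The authors deposited 1 table of whole-number read counts, unnormalised, with a row for each repeat name. The submitters' processing notes name Trimmomatic 0.39, STAR 2.7.8a, featureCounts and Subread 2.14.2. The build, the repeat annotation, the strand option and how multi-mapping reads were counted were not given in the sources used here, so reads can be shared among near-identical entries such as LTR2, LTR2B and LTR2C. Lengths and copy numbers of the repeats were not used, so levels were not compared between entries.

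Columns were matched to samples by title and groups come from the treatment label. Counts were fitted with edgeR 4.0.16 in R 4.3.3 (filterByExpr with the group, TMM factors, quasi-likelihood F-test, Benjamini-Hochberg adjustment over all entries tested, threshold 0.05). The SE is the log2 change divided by the square root of F. TMM factors ranged from 0.628 to 1.51, and the entries tested held 99.7% to 99.9% of counts. Ratios used log2 counts with 0.5 added and an exact two-sided permutation test over libraries. LTR retrotransposon entries (544, of which 537 were tested) were taken by name. Replicates of a group differed by more than sampling noise (chi-square per degree of freedom of at least 3.63). The procedure was tested on simulated counts.

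The members and lists were chosen with earlier results of these data known. All 5 members are named. Of related entries the called ones and the 2 with the most counts are named, and the nearest patterns were sought among named repeats with a mean of at least 5 CPM (prior count 2). Harlequin-int and HERVI-int and HERV1_I among the related entries were chosen after values were seen. Alternatives were RLE, upper-quartile and no factors, DESeq2 1.42.0, other filters, removal of alpha satellite and ribosomal RNA or of simple repeats, the replicate number as a block, thinning to the smallest library and each library left out. DESeq2 on the entries of the edgeR filter, 20 further thinning draws and the make-up of the 5 entries were added after seeing the data. Plots used Python 3.11.15 and matplotlib 3.10.9. No consensus sequence of these repeats was used.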

Additional observations from a re-analysis of the deposited data

How the results depend on the processing

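Primed library 2 limits these results, since its 5 values rest on 79 counts. With library size alone the log2 changes were 0.090 for HERVE-int, 0.32 for HERVE_a-int, -0.35 for LTR2, -0.23 for LTR2B and -1.22 for LTR2C, so that 0 members were called higher and 1 lower. The counts were then 0 and 5 for the related groups, 2 lower for HERV-K (HML-2), and 0 higher and 1 lower for HERV-H. In that fit 1051 of 3219 entries tested, and 55 of 537 LTR retrotransposon entries, were called lower, and 28 and 4 higher. Without simple repeats HERVE-int gave 0.53, HERVE_a-int 0.79 (still called), LTR2C -0.86 and called counts of 1 higher and 1 lower for the members, 0 and 2 for the related groups and 0 higher for HERV-H. Thinned to the smallest library, HERVE-int gave 0.74 and HERVE_a-int 0.78, with 0 members, 0 and 0 related entries and 1 of HERV-H called, and LTR2B and LTR2C could not be fitted; 0 of 20 further draws called any member. LTR2C was called lower, as 1 member, with RLE (-0.66) and upper-quartile factors (-0.70), a CPM of at least 1 in 3 libraries (-0.63) and alpha satellite and ribosomal RNA removed (-0.67). Related entries called lower numbered 2 with upper-quartile factors, no filter, or alpha satellite and ribosomal RNA removed, and 1 was called higher by DESeq2 on the entries of the edgeR filter. The cause of these changes was not tested.

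With the replicate number as a block LTR2C was called (-0.64, edgeR adjusted p = 0.00717) as 1 lower member, HERVE-int (0.70) and HERVE_a-int (0.92) stayed called, and 5 related entries were higher and 2 lower, with 1 HERV-K entry lower. The labels do not say what a shared number means, and same-numbered libraries deviated together with correlations of 0.146, 0.0867 and 0.0659 over 3219 entries, not all above the 0.1 set for pairing, so pairing was not established. Each naive library correlated best with the primed library of its own number, a hint from the data, not the design. The count of all entries called under the block was 264 higher and 374 lower, against 159 and 250.

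Leaving out each library in turn gave 0.62 to 1.01 for HERVE-int, 0.87 to 1.12 for HERVE_a-int and -0.76 to -0.39 for LTR2C. Members called higher numbered 0 to 2 and lower 0 to 1, related entries 0 to 4 and 0 to 1, and HERV-H entries 1 to 3 higher. The ratio of HERVE-int over HERVE_a-int ranged from -0.38 to 0.012 and that of LTR2 over LTR2B from -0.43 to 0.13. As unscaled CPM of all counts the sum of the 5 entries differed by -47.4, but by 228 without alpha satellite and ribosomal RNA, 226 among named repeats without these and structural RNA, and 33.1 among LTR retrotransposon entries. Over all entries, calls numbered 8 to 238 higher and 7 to 413 lower without 1 library, and 104 and 343 with upper-quartile factors, 28 and 1051 with library size alone, 89 and 110 by DESeq2, 72 and 119 by DESeq2 on the edgeR filter, 264 and 596 without a filter, 31 and 17 without simple repeats and 4 and 1 after thinning.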
